A study of Mus musculus with 13 samples.

Results

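The genes described here are 9 regulators of apoptosis, Bcl2, Mcl1, Bcl2l1, Bax, Bak1, Bcl2l11, Bid, Stk17b, and Pdcd5, out of the 24972 genes measured in common lymphoid progenitors (CLPs) of mouse bone marrow (BM). They were taken by gene symbol, and all 9 were found in both expression tables. The 7 members of the BCL2 family were taken for their function, while Stk17b and Pdcd5 were included because their values were low in Notch1+/- libraries, so their levels are given as a description with no test. CLPs are rare BM cells that give rise to B cells, natural killer cells, and some of the cells that seed the thymus. They were sorted from C57BL/6 mice aged 6 to 12 weeks as DAPI-, Lin-, Sca1Lo, cKitLo, CD127+, CD135+ cells, and their RNA was read from the 3′ end by strand-specific RNA-Seq. The 13 libraries came from 5 WT mice (libraries 1, 2, 3, 10, and 11), 5 Notch1+/- mice, which have lost 1 allele of Notch1 (libraries 4, 5, 6, 12, and 13), and 3 Notch1+/ΔTAD mice (libraries 7, 9, and 14). In Notch1+/ΔTAD mice, 1 allele lacks the transactivation domain of NOTCH1 and the other is WT, so that a receptor able to reach its DNA-binding partner but short of its activating part is made beside the normal one. No mouse received a treatment, and the design compares each heterozygous genotype with WT and the loss of an allele with the loss of a domain.

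Apoptosis through mitochondria is set by the balance within the BCL2 family. BCL2, MCL1, and BCL-XL (the product of Bcl2l1) hold the effectors BAX and BAK in check, and BH3-only proteins such as BIM (Bcl2l11) and BID release or activate the effectors, which then permeabilize the outer mitochondrial membrane and let cytochrome c out to activate caspases. Early lymphoid cells depend on this balance, since IL-7 receptor signaling keeps them alive in part through BCL2 and MCL1 and against BIM. Stk17b encodes DRAK2, a serine/threonine kinase of the death-associated protein kinase family that is prominent in lymphocytes, and Pdcd5 encodes a small protein named for its link to programmed cell death.

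NOTCH1 acts on genes through the DNA-binding protein RBPJ, whose sites hold the core TGGGAA, and this core was looked for on either strand within the 250 bases before each annotated start. It was present in the promoters of Stk17b, Pdcd5, and Bax, and these stretches are shown because the first 2 genes are those included for low values in Notch1+/- libraries. Each is written 5′ to 3′ on the strand of its gene (the minus strand of GRCm38 in each case, from RefSeq), with the core, or its complement TTCCCA, in capitals.
Stk17b, chr1:53785436-53785465: gaaaaagTGGGAAaagaggcgcggaccccc
Pdcd5, chr7:35647618-35647647: cagttcagagccTGGGAAcccacaagcgcc
Pdcd5, chr7:35647579-35647608: gttctgccccttTTCCCAtcgcaggatcgg
Bax, chr7:45467018-45467047: accatgaatctaTGGGAAgaagaaataatg
The core began 243 bases before the start of Stk17b, 153 and 114 bases before that of Pdcd5, and 137 bases before that of Bax. It was found in 3 of the 12 promoters listed for the 9 genes (25%), and in 7094 of all 32851 promoters of the same length (21.6%). A core of this length is common, so its presence is a description of the sequence and not of binding.

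All values are TPM, a unit in which the reads of a gene are divided by its length and scaled so that each library sums to 1000000 transcripts. The libraries were sparse. Between 3264 and 6326 genes were above 0 in a library, both extremes being Notch1+/- libraries (6 and 13), and genes at 1 TPM or more numbered 3179 to 3855 in WT, 2818 to 4736 in Notch1+/-, and 3984 to 4663 in Notch1+/ΔTAD. Genes that every cell uses were also listed at 0 in places, such as Cycs in 1 library and Vdac2 in 5, so a 0 is reported only as a listed value, and no mean TPM is printed. The differences of mean log2(TPM + 1) below do take in values at 0. Notch1 itself ranged from 0 to 25.7 TPM in WT, 9.27 to 78.5 TPM in Notch1+/-, and 0.893 to 35.0 TPM in Notch1+/ΔTAD, so its level does not check the genotype labels. Of the genes behind the sort gate, Flt3 (CD135) was above 0 in all 13 libraries (5.21 to 282 TPM) and Il7r (CD127) in 12, while Ly6a (Sca1) was listed at 0 in 8 and Kit in 5. Summed over whole marker lists, the 7 CLP and gate genes reached 2521 to 10556 TPM, 7 B lineage genes 4.95 to 1839 TPM, 8 myeloid genes 212 to 2067 TPM, and 7 T and NK genes 0 to 1309 TPM, with 4 of these 7 at 0 throughout. Dntt alone was at 2095 to 9616 TPM and Ly6d at 194 to 2559 TPM, so the CLP and gate sum rested largely on them. The 6 erythroid genes summed to at most 17.6 TPM, and 5 of them were at 0 in all libraries. The part of other cell types in the values below was not tested, and in bulk RNA fewer cells with a transcript and less of it per cell cannot be told apart.

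The 9 genes gave 117 values, of which 42 were listed at 0, 10 lay above 0 and under 1 TPM, and 51 were at 10 TPM or more. Bcl2 was the only one above 0 in all 13 libraries, and none was at 1 TPM or more in all of them. WT libraries held 5 to 7 of the 9 at 1 TPM or more (median 5), Notch1+/- libraries 3 to 7 (median 3), and Notch1+/ΔTAD libraries 5 to 6 (median 6). As Stk17b and Pdcd5 enter these counts and were chosen for low values in Notch1+/-, the counts carry that choice.

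**Figure D1:**
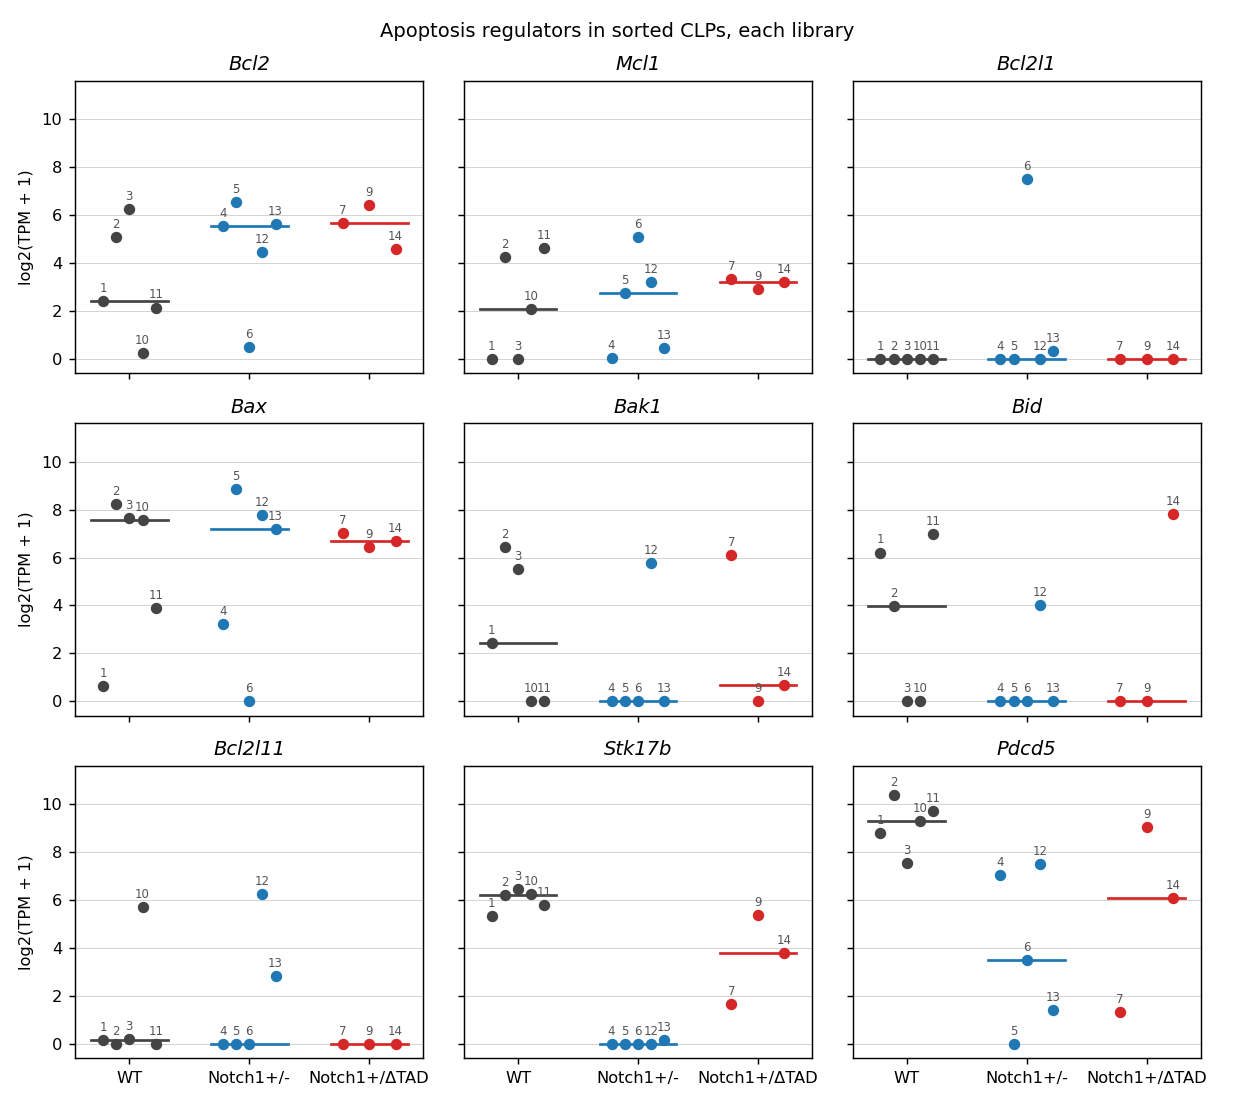
TPM of the 9 genes in each of the 13 libraries, drawn as log2(TPM + 1), with 1 point for each library and the median of each genotype as a bar. In Notch1+/-, Bax spread from 0 to 470 TPM, whereas Stk17b kept to 39.6 to 87.1 TPM in WT and to 0.0976 TPM or less in Notch1+/-.

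Among the anti-apoptotic members, Bcl2, the founding member of the family (chr1:106538178-106714274, minus strand), was listed at 4.37, 32.8, 75.5, 0.180, and 3.41 TPM in WT libraries 1, 2, 3, 10, and 11. In Notch1+/- libraries 4, 5, 6, 12, and 13 it was at 45.5, 92.9, 0.422, 21, and 48.7 TPM. The 3 Notch1+/ΔTAD libraries (7, 9, and 14) stood at 49.7, 83.8, and 23.0 TPM. Each heterozygous genotype thus had a higher median than WT (45.5 and 49.7 against 4.37 TPM), but WT library 3 was above 4 of the 5 Notch1+/- and 2 of the 3 Notch1+/ΔTAD libraries, so the groups overlapped. On the log2(TPM + 1) scale, Bcl2 was 1.31 higher in Notch1+/- than in WT (SE 1.68, 95% interval −2.27 to 4.90, limma adjusted p = 0.993, 2-sided exact permutation p = 0.429) and 2.32 higher in Notch1+/ΔTAD than in WT (SE 1.82, −1.59 to 6.24, adjusted p = 0.972, exact p = 0.196). Neither difference exceeded the spread between mice.

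Mcl1, a short-lived guardian that lymphoid progenitors need (chr3:95658788-95663176, plus strand), was low. It was listed at 0, 17.9, 0, 3.27, and 23.4 TPM in WT and at 0.0252, 5.75, 33.2, 8.28, and 0.357 TPM in Notch1+/-. The 3 Notch1+/ΔTAD libraries lay close together at 9.17, 6.53, and 8.29 TPM, inside the range of both other genotypes. Its difference from WT was 0.12 in Notch1+/- (SE 1.39, −2.85 to 3.08, limma adjusted p = 0.993) and 0.97 in Notch1+/ΔTAD (SE 1.80, −2.89 to 4.83, adjusted p = 0.996). Where it was above 0, Mcl1 stood at a median percentile of 28.5 among the genes above 0 in the same library, against 50.9 for Bcl2. Bcl2l1, which encodes BCL-XL (chr2:152780668-152831728, minus strand), was listed at 0 in 11 libraries, all of WT and Notch1+/ΔTAD included. It stood at 182 TPM in Notch1+/- library 6 and at 0.248 TPM in library 13. With so few values it was not tested in any comparison. The 3 genes together summed to 3.45 to 75.5 TPM in WT, 29.3 to 215 TPM in Notch1+/-, and 31.3 to 90.4 TPM in Notch1+/ΔTAD.

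Of the effectors, Bax (chr7:45461697-45466898, minus strand) had the higher TPM in 11 of 13 libraries. It was listed at 0.539, 298, 203, 191, and 13.7 TPM in WT libraries 1, 2, 3, 10, and 11 and at 8.43, 470, 0, 215, and 144 TPM in Notch1+/- libraries 4, 5, 6, 12, and 13. The Notch1+/ΔTAD values were 128, 85.2, and 102 TPM in libraries 7, 9, and 14. Both larger groups held libraries near 0 beside libraries above 100 TPM, and the Notch1+/ΔTAD values fell between them. The difference from WT was −0.19 in Notch1+/- (SE 1.90, −4.24 to 3.87, limma adjusted p = 0.993, exact permutation p = 0.913) and 1.11 in Notch1+/ΔTAD (SE 1.70, −2.54 to 4.77, adjusted p = 0.996, exact p = 0.696). These directions rested on single libraries, as Bax was 1.17 higher in Notch1+/- without library 6, where it was at 0, and 0.13 lower in Notch1+/ΔTAD (−0.13) without WT library 1.

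Bak1, the other effector (chr17:27019810-27029009, minus strand), was listed at 0 in 7 libraries. It reached 4.37, 86.4, and 44.6 TPM in WT libraries 1, 2, and 3, 54.1 TPM in Notch1+/- library 12 alone, and, among Notch1+/ΔTAD libraries, 67.1 TPM in library 7 and 0.591 TPM in library 14. The gene passed the minimum for testing beside Notch1+/ΔTAD and not between Notch1+/- and WT. In Notch1+/ΔTAD the difference from WT was −0.62 (95% interval −5.34 to 4.09), a sign that turned without WT library 2 or 3 or Notch1+/ΔTAD library 9 or 14 (up to 0.50). In that comparison Bak1 met the minimum only through WT libraries 1, 2, and 3, so no p is given as a test. Bax was above Bak1 in 11 of 13 libraries, below it in WT library 1, and equal to it at 0 in Notch1+/- library 6. Other genes are annotated across several members, among them Gm45808 on the strand of Bax, Ggnbp1 opposite Bak1 (listed at 0 throughout), and Bcl2l13 opposite Bid (up to 57.6 TPM). Whether strand was used to assign reads is not given in the sources used here, so reads of these neighbors cannot be told apart from those of the members.

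The TPM of Bax was above that of Bcl2 in 10 of 13 libraries, 4 of 5 in WT, 3 of 5 in Notch1+/-, and all 3 in Notch1+/ΔTAD. Because these libraries were read from the 3′ end, where a transcript gives about 1 tag whatever its length, the order of 2 genes on the TPM scale depends on their lengths. The longest of the coding transcripts annotated as principal measure 867 bases for Bax and 7191 bases for Bcl2. With TPM multiplied by transcript length, a setting added after the values were seen, Bax was above Bcl2 in only 3 libraries and Bcl2 was higher in 10. The lengths behind the deposited TPM are not given in the sources used here, so which of the pair was more abundant was not settled. Bcl2 was above Mcl1 in 10 of 13 libraries on both scales. With TPM multiplied by length, Bax was above Bak1 in 10 libraries, below it in 2, and equal to it in 1.

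**Figure D2:**
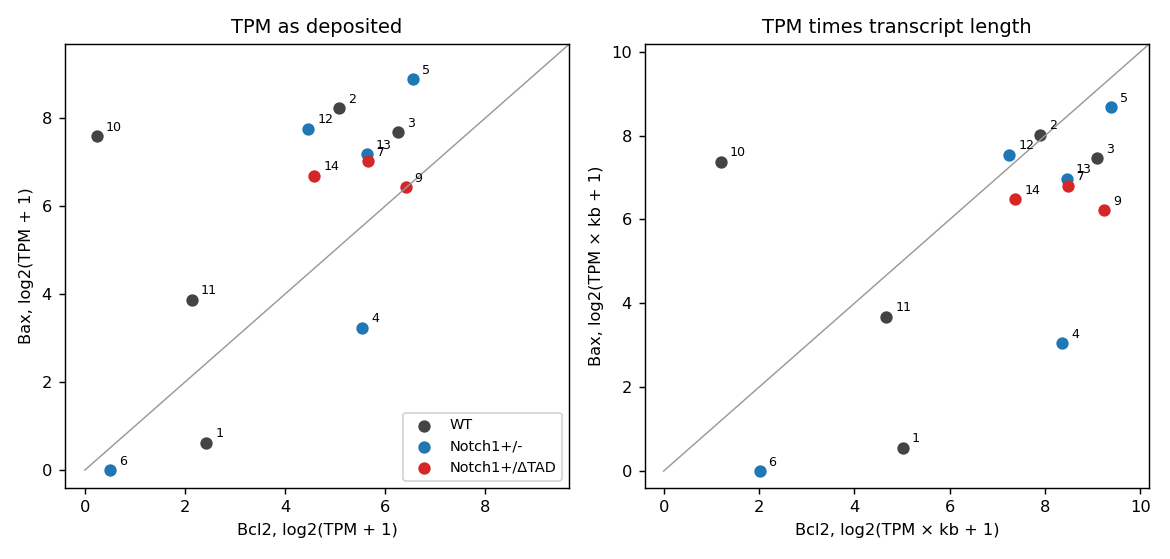
Bax against Bcl2 in each of the 13 libraries, as log2(TPM + 1) on the left and after multiplying TPM by transcript length in kilobases on the right, with the diagonal line of equality and points numbered by library. Bax was above the line in 10 libraries on the left and in 3 on the right.

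The BH3-only members were seen in few libraries. Bcl2l11, encoding BIM (chr2:128126038-128162547, plus strand), was at 1 TPM or more in 3 libraries, WT library 10 (51.4 TPM) and Notch1+/- libraries 12 and 13 (75.7 and 6.12 TPM), and was listed at 0 in all 3 Notch1+/ΔTAD libraries. Between the mutants its difference was −1.82 (Notch1+/ΔTAD minus Notch1+/-, SE 1.56, −5.06 to 1.43). Bcl2l11 met the minimum for testing there only through these 3 libraries of WT and Notch1+/-, so no p is given as a test. Bid, whose product is cleaved by caspase-8 to link death receptors to mitochondria (chr6:120891930-120916853, minus strand), was at 73.0, 14.6, and 127 TPM in WT libraries 1, 2, and 11, at 15.2 TPM in Notch1+/- library 12, and at 225 TPM in Notch1+/ΔTAD library 14, with the other 8 libraries at 0. A transcript of either gene at 1 TPM or more was present in 4 of 5 WT, 2 of 5 Notch1+/-, and 1 of 3 Notch1+/ΔTAD libraries. In Notch1+/ΔTAD, Bid differed from WT by −0.83 (SE 2.46, −6.11 to 4.45), with the sign turning without WT library 11 (0.06) or without Notch1+/ΔTAD library 7 or 9 (0.48). In that comparison Bid met the minimum only through WT libraries 1, 2, and 11, so no p is given as a test.

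Stk17b (chr1:53755506-53785224, minus strand, 8 exons) had the steadiest level of the 9 in WT, with 39.6, 72.1, 87.1, 75.2, and 54.4 TPM in libraries 1, 2, 3, 10, and 11. In Notch1+/- it was listed at 0 in libraries 4, 5, 6, and 12 and at 0.0976 TPM in library 13. In Notch1+/ΔTAD it was at 2.14, 40.3, and 12.6 TPM in libraries 7, 9, and 14. The lowest WT value was thus far above every Notch1+/- value, and the Notch1+/ΔTAD libraries lay between, all above Notch1+/- and 2 of 3 below all of WT, with library 9 just above WT library 1. The gene was chosen on these values, so no test is given. On the log2(TPM + 1) scale the group means differed by −5.98 between Notch1+/- and WT, by −2.41 between Notch1+/ΔTAD and WT, and by 3.57 between Notch1+/ΔTAD and Notch1+/-. With values at 0 these sizes follow the pseudocount, and the first was −9.11 with a pseudocount of 0.1 and −2.88 with 10, the last 6.51 and 1.26. By library number, WT held 39.6 to 87.1 TPM in libraries 1 to 9 and 54.4 to 75.2 TPM in libraries 10 to 14, and Notch1+/- held 0 in the first range and at most 0.0976 TPM in the second.

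Over the 9 libraries of any genotype in which it was above 0, Stk17b reached a median percentile of 52.3 among the genes above 0. Among the 3178 genes tested between Notch1+/- and WT, 12 (0.378%) were lower in Notch1+/- without overlap between the groups, Stk17b and Pdcd5 included. Among the 6281 genes tested between the mutants, 153 (2.44%) were higher in Notch1+/ΔTAD without overlap, as Stk17b was. These shares describe how common such a pattern was and are not evidence about genes chosen for it. No other gene is annotated across Stk17b or Pdcd5.

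Pdcd5 (chr7:35641982-35647521, minus strand, 6 exons) had the highest median of the 9 in WT (627 TPM), with 443, 1335, 184, 627, and 828 TPM in libraries 1, 2, 3, 10, and 11. In Notch1+/- libraries 4, 5, 6, 12, and 13 it was at 130, 0, 10.1, 179, and 1.65 TPM. Its values in Notch1+/ΔTAD were 1.51 (library 7), 528 (library 9), and 66.5 TPM (library 14). All Notch1+/- values were below all WT values, though by little at the edge, with 179 TPM in Notch1+/- library 12 next to 184 TPM in WT library 3. Notch1+/ΔTAD overlapped both other genotypes, with library 9 inside the WT range and the other 2 below it. The differences of means, again without a test because the gene was chosen on these values, were −5.26 for Notch1+/- and −3.65 for Notch1+/ΔTAD against WT, and 1.6 between the mutants, which became −0.18 without Notch1+/ΔTAD library 9. The difference between Notch1+/ΔTAD and WT ranged from −5.44 without library 9 to −1.58 without library 7. The transcript is short, at 684 bases, which raises its TPM beside longer genes in 3′ libraries.

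The genes whose TPM followed that of Stk17b most closely in rank over the 13 libraries, out of 2983 genes at 1 TPM or more in at least 7 of them, were Nudt4 (Spearman rho 0.894), Ckap2l (0.882), and Copb1 (0.860). Nudt4 was low and overlapped between genotypes, at 0.0212 to 32.3 TPM in WT, 0 to 6.57 TPM in Notch1+/-, and 0.0808 to 9.02 TPM in Notch1+/ΔTAD. Ckap2l, which encodes a protein of the mitotic spindle, was at 56.9 to 213 TPM in WT, 0 to 19.8 TPM in Notch1+/-, and 23.1 to 109 TPM in Notch1+/ΔTAD. Copb1, which encodes a subunit of the COPI vesicle coat, was at 0 to 161, 0 to 2.01, and 11.3 to 120 TPM. For Pdcd5 the closest were Rb1cc1 (0.848), Nsmce4a (0.834), and Cct2 (0.819). Rb1cc1 also overlapped, at 1.41 to 26.1 TPM in WT, 0 to 13.4 TPM in Notch1+/-, and 0 to 3.24 TPM in Notch1+/ΔTAD. Nsmce4a was at 12.9 to 142, 0 to 2.73, and 0 to 48.7 TPM in the same order. Cct2, a subunit of the chaperonin that folds actin and tubulin, was at 130 to 330 TPM in WT, 1.01 to 94.8 TPM in Notch1+/-, and 2.43 to 108 TPM in Notch1+/ΔTAD. Both lists share the genotypes and the libraries with the gene they were ranked on, and these are descriptions with no p. The rank correlation between Stk17b and Pdcd5 was 0.730 and reflects in part that both were picked for the same libraries. The strongest among the other pairs of well-covered members were 0.407 for Bcl2 and Bax and −0.407 for Bcl2 and Pdcd5, which are weak over 13 sparse libraries.

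Taken as a family, none of the 7 BCL2 members passed the test in any comparison. Between Notch1+/- and WT, 3 of the 7 (Bcl2, Mcl1, and Bax) reached 1 TPM in at least 5 libraries and entered the test, and the adjusted p was under 0.05 for 0, against 0 (0%) of all 3178 genes tested. At an unadjusted limma p under 0.05, 0 of the 3 stood beside 170 (5.35%) of all genes. None of the 3 was free of overlap between the groups, beside 25 (0.787%) of all genes. The smallest exact permutation p that 5 against 5 libraries allow is 0.00794. The 4 others were below the minimum, and the differences of their means were −2.63 for Bid, −1.72 for Bak1, 0.61 for Bcl2l11, and 1.57 for Bcl2l1. With the minimum removed their adjusted p ranged from 0.709 to 0.936.

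Between Notch1+/ΔTAD and WT, 5 of the 7 were tested among 4737 genes, with Bak1 and Bid let in only by WT libraries. None was called, against 0% of all genes, none had an unadjusted limma p under 0.05, against 237 genes (5%), and none was free of overlap, against 148 genes (3.12%). Of these 237 genes, 196 were higher and 41 lower in Notch1+/ΔTAD, and after quantile normalization the same threshold gave 136 and 69. The smallest exact p that 3 against 5 libraries allow is 0.0179. The median of all genes tested was itself 0.47 higher in Notch1+/ΔTAD, and quantile normalization brought it to −0.02. With that normalization the median of the 5 members went from 0.97 to −0.79, with Mcl1 at −0.81. The 5 include Bak1 and Bid, admitted through WT libraries in which they were high, so neither member median is read as a change. Between the mutants, 6 of the 7 were tested among 6281 genes, with Bcl2l11 let in only by libraries of WT and Notch1+/-. Bak1 and Bid met the minimum there only with WT libraries, as each reached 1 TPM in 1 library of each mutant genotype. Again none of the 6 was called, against 0%, and none had an unadjusted limma p under 0.05, against 335 genes (5.33%). None was free of overlap, against 192 genes (3.06%). The differences, Notch1+/ΔTAD minus Notch1+/-, were 1.01 for Bcl2, 0.85 for Mcl1, 1.3 for Bax, 1.10 for Bak1, 1.80 for Bid, and −1.82 for Bcl2l11, with SE from 1.56 to 2.16, in a setting where the median of all genes was 0.35. The 3 comparisons share libraries, and their directions are not independent of each other. The narrowest interval of a tested member, that of Mcl1 between Notch1+/- and WT, ran from −2.85 to 3.08, so changes of several fold in these genes were not detectable at this spread.

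**Figure D3:**
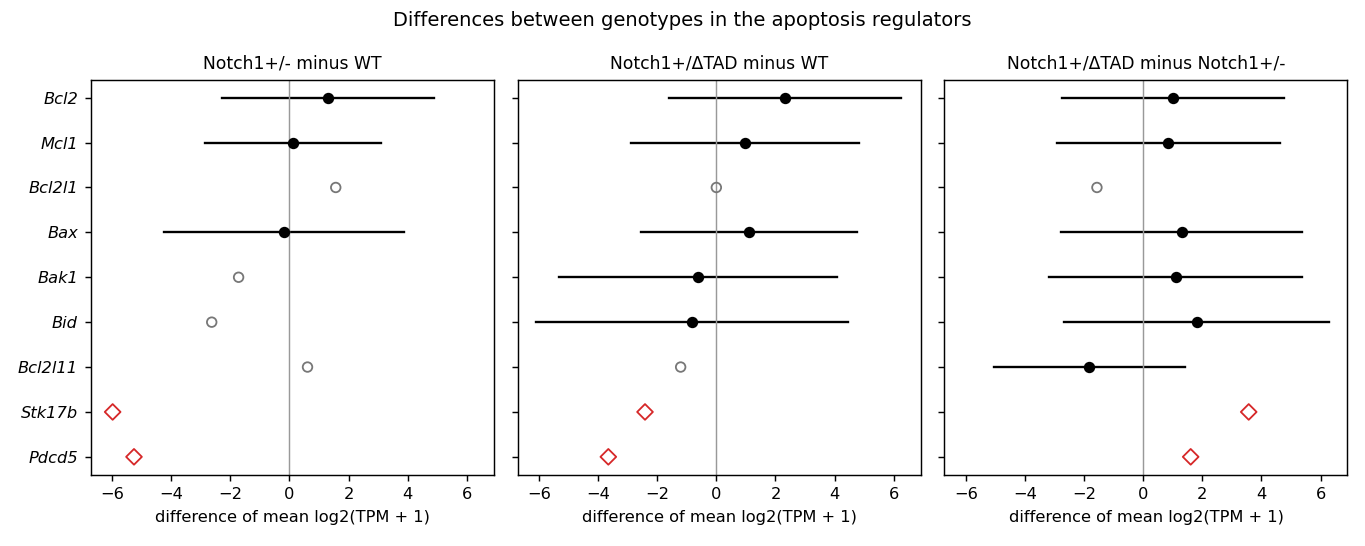
Differences of mean log2(TPM + 1) for the 9 genes in the 3 comparisons, with 95% intervals from limma for the BCL2 family members tested (filled), open circles for members below the minimum for testing, and open diamonds for Stk17b and Pdcd5, which were chosen on their values and not tested. Each interval crosses 0.

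The wider pathway was read from 64 further genes in 10 lists by role. Of these, 11 were listed at 0 in all libraries, 22 were at 1 TPM or more in 7 or more libraries, and only 4 were so in all 13, namely Casp8, Birc5, Vdac3, and Ywhaz. The rest of the BCL2 family was rarely listed above 0. Bok was at 0 throughout, Bcl2a1b reached 0.757 TPM in a single library, and Bcl2l2, another guardian, was above 0 in 3 libraries. Among BH3-only and related genes, Bnip3l, a mitophagy receptor, was at 1 TPM or more in 8 libraries (up to 158 TPM) and Bad in 5 (up to 333 TPM, in Notch1+/-).

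Downstream of the mitochondria, Cycs, which encodes cytochrome c, was at 7.43 to 320 TPM in WT, 0 to 121 TPM in Notch1+/-, and 31.3 to 171 TPM in Notch1+/ΔTAD. Casp8, the initiator caspase of death receptors, was at 24 to 247, 11.4 to 207, and 21 to 303 TPM in the same order. Birc5, which encodes survivin and also marks dividing cells, was the highest of the 64 on average, at 638 to 2027, 79.4 to 1507, and 121 to 1750 TPM. Among death receptor genes, Cflar, the caspase-8 inhibitor c-FLIP, was at 0 to 897, 0 to 555, and 31.4 to 208 TPM, and Tnfrsf1a, a TNF receptor, was listed at 0 in 8 libraries. Of the p53 pathway, Trp53 reached 71.0 TPM in WT, 209 TPM in Notch1+/-, and 39.2 TPM in Notch1+/ΔTAD, and Cdkn1a, the cell cycle inhibitor p21, was at 42.1 to 289, 0 to 248, and 29.6 to 302 TPM. The genotypes overlapped for each of these genes.

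The relatives of the chosen pair are set beside it. In the family of Stk17b, Dapk1 was at 0 in 10 libraries and in all of WT, and Dapk3 was at 0 in 12. Of genes named like Pdcd5 for programmed cell death, Pdcd4, a translation inhibitor, was at 0 to 519 TPM in WT and 15.7 to 468 TPM in Notch1+/-. In Notch1+/ΔTAD it was at 115 to 205 TPM. Of the 4 other genes so named that entered the test between Notch1+/- and WT, Pdcd4 among them, 2 were higher and 2 lower in Notch1+/-. No difference between genes was tested.

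Across the lists, 0 genes passed the adjusted threshold in any comparison. Of the 23 that entered the test between Notch1+/- and WT, none reached an unadjusted limma p under 0.05, beside 5.35% of all genes tested. In Notch1+/-, 8 of the 23 were higher and 15 lower, beside 1635 higher and 1543 lower of all 3178 genes. Their median difference was −0.60 beside 0.06 for all genes. Between Notch1+/ΔTAD and WT, 30 were tested, and 22 were higher and 8 lower, beside 2928 higher and 1809 lower of all 4737 genes. The median was 0.74 beside 0.47 for all genes. Between the mutants, 39 were tested, and 26 were higher and 13 lower in Notch1+/ΔTAD, beside 3699 higher and 2575 lower of all 6281 genes. The median was 0.91 beside 0.35. After quantile normalization the medians of the list genes were −0.25, 0.26, and 0.35, beside −0.06, −0.02, and 0.01 for all genes. The counts of list genes by direction became 7 and 16, 18 and 12, and 22 and 17, so fewer were higher in Notch1+/ΔTAD. In both comparisons of Notch1+/ΔTAD the scaling lowered the median of the list genes together with that of all genes. A minimum met in 3 libraries also lets in genes through Notch1+/ΔTAD alone, so these directions are no support for a rise.

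In the list genes, 2 of 30 had an unadjusted limma p under 0.05 between Notch1+/ΔTAD and WT (Birc6 and Ghitm) and 3 of 39 between the mutants (Birc6, Vdac2, and Pdcd6), all higher in Notch1+/ΔTAD, beside 5% and 5.33% of all genes tested. Birc6, a large inhibitor of apoptosis that also attaches ubiquitin, was listed at 0 in all 5 WT libraries, at 12.8, 0, 0, 0.501, and 0.0542 TPM in Notch1+/-, and at 30.3, 5.35, and 4.66 TPM in Notch1+/ΔTAD. Ghitm, a mitochondrial inner membrane protein of the BAX inhibitor family, was at 1.54 to 86.4 TPM in Notch1+/ΔTAD, 0 to 3.94 TPM in WT, and 0 to 156 TPM in Notch1+/-. Pdcd6, which encodes the calcium-binding protein ALG-2, was at 0, 61.5, and 97.0 TPM in the Notch1+/ΔTAD libraries (7, 9, and 14), while Notch1+/- held at most 0.852 TPM and WT library 1 stood at 59.2 TPM. Birc6 and Ghitm beside WT, and Birc6 and Pdcd6 between the mutants, met the minimum for testing only through the Notch1+/ΔTAD libraries in which they were high, so their p-values are not given as tests of a difference.

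Vdac2, a mitochondrial channel that binds BAK, was 5.44 higher in Notch1+/ΔTAD than in Notch1+/- (SE 2.18, limma p = 0.0204, adjusted p = 0.932, exact permutation p = 0.0714). It was at 124 to 218 TPM in all 3 Notch1+/ΔTAD libraries and at 0 in 3 of 5 Notch1+/- libraries, while WT spanned 0 to 221 TPM. Ywhaz, a 14-3-3 protein that holds phosphorylated BAD in the cytosol, was 1.26 lower in Notch1+/- than in WT (difference −1.26, SE 0.825). Ywhaz was named after its values were seen, so no p is given as a test. Its values were 170.6 to 268 TPM in WT and 29.6 to 176 TPM in Notch1+/-, and the groups overlapped. None of these 5 genes passed the adjusted threshold.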

How the data were processed

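Each library was made from the sorted CLPs of 1 mouse with a strand-specific, oligo(dT)-primed 3′ kit in a low-input protocol with PCR, and all libraries were prepared in 1 batch. Reads were trimmed by the authors (FASTQ Toolkit) and mapped to the mm10 build by STAR, and the TPM they deposited fill 2 tables, which pair each heterozygous genotype with identical WT columns. The tool and annotation behind the TPM are not given in the sources used here. Read counts were not used here, so the depth of each library is unknown, no limit can be given for a value of 0, and precision was judged from the spread between mice.

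TPM as deposited were transformed to log2(TPM + 1), a scale that understates changes of low genes. Genes at 1 TPM or more in at least 5 of 10 libraries (Notch1+/- and WT), 3 of 8 (Notch1+/ΔTAD and WT), or 3 of 13 (between the mutants, in 1 model of all libraries) were compared with limma 3.58.1 in R 4.3.3 (lmFit and eBayes with trend, 2-sided). P-values were adjusted by the Benjamini-Hochberg method over all genes tested, with 0.05 as the threshold. Exact permutation tests went through every assignment of the compared libraries to the groups. Scripts were tested on simulated data. Coordinates are from GENCODE M21 on GRCm38, and promoters from RefSeq.

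The 9 genes, the lists of further apoptosis genes, and the markers were chosen with earlier results of these data known. Further genes were named by a rule, which took the 2 with the highest mean TPM of each list, those with an unadjusted limma p under 0.05 or without overlap between groups in any comparison, and the 3 genes closest in rank to Stk17b and to Pdcd5. Ywhaz, whose values were seen first, and genes that overlap a member stand outside it. Alternatives were pseudocounts of 0.1 and 10, no minimum, quantile normalization, a minimum mean of 10 TPM, eBayes without trend or robust, a covariate dividing the libraries into numbers 1 to 9 and 10 to 14, other sets of libraries in the model, and leaving out each library in turn.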

Additional observations from a re-analysis of the deposited data

Results flagged for a closer look

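In each genotype with 5 libraries, the highest and lowest values of the 9 genes were compared with their nearest neighbor by Dixon's ratio of gap to range, with a critical value of 0.71. Of 17 groups with any value above 0, 7 passed it, all through a single high library, in 6 genes. In 3 of the 7 the high library was the only one of its genotype above 0, which fixes the ratio at 1, and Stk17b was chosen on its Notch1+/- values, so the rate of about 1 in 20 that chance gives for this ratio does not apply to these counts.

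Notch1+/- library 6, the library with the fewest genes above 0, held the high value of Mcl1 (33.2 TPM, with 8.28 TPM next) and of Bcl2l1 (182 TPM, with 0.248 TPM next). Notch1+/- library 12 held those of Bak1 (54.1 TPM, with the other 4 at 0), Bid (15.2 TPM, with the other 4 at 0), and Bcl2l11 (75.7 TPM, with 6.12 TPM next). WT library 10 held that of Bcl2l11 (51.4 TPM, with 0.134 TPM next). Stk17b stood at 0.0976 TPM in Notch1+/- library 13, the library with the most genes above 0, and at 0 in the other 4.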

How the results depend on the processing

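No member of the BCL2 family passed the threshold under any alternative. Adjusted p ranged from 0.756 to 1 for members above the minimum and from 0.709 to 0.936 for the others, tested only with no minimum. Of 400 values of member differences under alternatives, 370 kept their direction and, where tested, their side of the threshold, 4 moved (those of Stk17b with the pseudocount, given with its levels), and 26 changed sign. Quantile normalization turned Mcl1 to −0.10 (Notch1+/- against WT), −0.81 (Notch1+/ΔTAD against WT), and −0.79 (between the mutants). Without libraries 6 and 13, left out after the values were seen, Mcl1 was −0.19 and Bax 1.03 in Notch1+/- against WT. Leaving out 1 library at a time, the signs that turned were those of Mcl1 (−0.58 to 0.72) and Bax (−1.43 to 1.17) in Notch1+/- against WT, and of Bax (−0.13 to 1.77), Bak1 (−2.54 to 0.50), and Bid (−3.43 to 0.48) in Notch1+/ΔTAD against WT. Between the mutants they were those of Bax (−0.052 to 2.17), Bak1 (−0.82 to 2.25), Bid (−0.80 to 3.11), and Pdcd5 (−0.18 to 3.68). The cause was not tested. The count of all genes called was 0 in each comparison, and 0 whichever library was left out. It became 2 (Notch1+/- against WT), 15 (Notch1+/ΔTAD against WT), and 3 (between the mutants) with eBayes without trend, and 5 for Notch1+/ΔTAD against WT in 1 model of all libraries, with none of the 7 BCL2 family members among them. No paired analysis was possible because library numbers are not shared between genotypes. Depth is unknown, so values at 0 carry no limit.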
